A study of Mus musculus with 16 samples.

Results

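Pituitary glands of 4 *Esr1*Nkx2.1-cre mutant females fed a high-fat diet (HFD) were compared with those of 4 control females fed standard diet (SD), which together are 8 of the 16 mice profiled by bulk RNA-seq. The other 8 were mutants on SD and controls on HFD, and the controls on HFD do not enter the comparison, so that it shows which genes stood apart from the control SD baseline in mutants after the dietary challenge. Every mouse was a female of 27 weeks that carried floxed *Esr1* (*Esr1* fl/fl), the gene for oestrogen receptor alpha. The mutants also carried a Cre recombinase driven by *Nkx2-1*, a gene of the ventral hypothalamus and of the posterior lobe of the pituitary, and lost *Esr1* in cells that express *Nkx2-1* or descend from cells that did. The floxed allele was made on a 129P2 background, and the paper states that the mice were kept on a mixed background of CD-1 and 129P2. The mutants on HFD (P339, P341, P387 and P388) had received the diet for 17 weeks, whereas the controls on SD (P356, P358, P359 and P383) stayed on the diet that the labels call chow. Because genotype and diet both differed between the groups, their parts in any difference cannot be told apart.

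The anterior lobe of the pituitary holds the cells that secrete prolactin, growth hormone, the gonadotrophins, thyrotrophin and corticotrophin, and the intermediate lobe holds melanotrophs. The posterior lobe holds axon endings from the hypothalamus and supporting pituicytes. Oestrogen receptor alpha is present in lactotrophs and gonadotrophs, and oestradiol is known to raise *Prl*, *Gal*, *Vip* and *Pgr* in the rodent gland and to restrain *Lhb* and *Fshb*.

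Each library was a separate mouse, and the deposited values were 1 normalized expression value per gene that summed to between 910679 and 1076541 in the 8 mice. *Prl* took between 30.8% and 39.4% of that sum. Of the genes of hypothalamic neurons, *Agrp* was between 0.479 and 4.71 and *Oxt* between 14.2 and 36.7. In genes with 1 annotated transcript, 3 reads came to 0.137 to 0.189 units at an effective length of 1 kilobase. Effective length is the transcript less a typical fragment, and 3 reads come to less in a longer transcript. Values of that order in short transcripts are mostly counting error. Control P356 stood apart from its group. Its correlation across genes was between 0.956 and 0.959 with the other controls and between 0.959 and 0.968 with the mutants on HFD. On the first principal component, which held 30.3% of the variance, P356 was at −10.1, the other controls between −46.0 and −45.2, and the mutants on HFD between 10.7 and 22.1. Whether its label or its dissection differed was not tested, so what P356 adds to the control values is open to that doubt. Results that P356 moves most are given with and without it. Mutant P357 on SD also stood apart: its mitochondrial genes summed to 119409 (32247 to 49368 in the other 15 mice), 533 genes were at 0 (96 to 310 in the others), melanotroph genes were near absent (*Pax7* at 0.132 and *Pomc* at 1654), and of posterior lobe genes *Avp* and *Rax* were at 0 and *Oxt* at 0.792. It enters only the values on SD and the diet differences.

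*Esr1* (chr10:4611593-5005614, plus strand, GRCm38) was 40.5, 46.6, 39.4 and 29.0 in the controls and 33.4, 27.9, 33.0 and 21.5 in the mutants on HFD. The groups overlapped, with control P383 below mutants P339 and P387. The difference was −0.42 ± 0.17 on the log2(value + 0.5) scale (SE, n = 4 against 4), with a limma adjusted p of 0.174 and a two-sided exact permutation p of 0.0857, where 0.0286 is the smallest p that this design allows. The value is 1 per gene, includes exons outside the deleted part, and sums all cells of the gland, so it is a weak check of the genotype. *Nkx2-1*, the gene that drives the Cre, was between 1.51 and 2.32 in controls and between 1.10 and 1.46 in mutants on HFD. These ranges did not overlap (exact permutation p = 0.0286), but the difference of −0.31 had a limma adjusted p of 0.366.

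Of the 14319 genes whose mean over the 8 mice reached 1, 1064 differed at an adjusted p under 0.05 (limma, Benjamini-Hochberg), which is 7.43% of the genes tested. Of these called genes, 730 were higher in mutants on HFD, 5.1% of the genes tested, and 334 were lower, 2.33%. The median difference of all tested genes was 0.01 on the log2 scale, against 0.94 for the genes called higher and −0.78 for those called lower. The share of called genes that were higher was 68.6% with the values as deposited and 57.7% after quantile normalization, which gave 626 higher and 459 lower. Without regard to any test, the 2 groups of 4 did not overlap in 2119 genes, 14.8% of those tested, of which 1283 were higher and 836 lower in mutants. The called genes without overlap numbered 1016. Differences above 2 on the log2 scale were found in 78 of the genes called higher, and differences below −2 in 12 of those called lower. List counts given below without P356 come from a fit of 14344 genes, of which 17.5% were called (1487 higher and 1028 lower). The lists were chosen with earlier results of these data known, so their shares describe the members and test nothing.

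**Figure D1:**
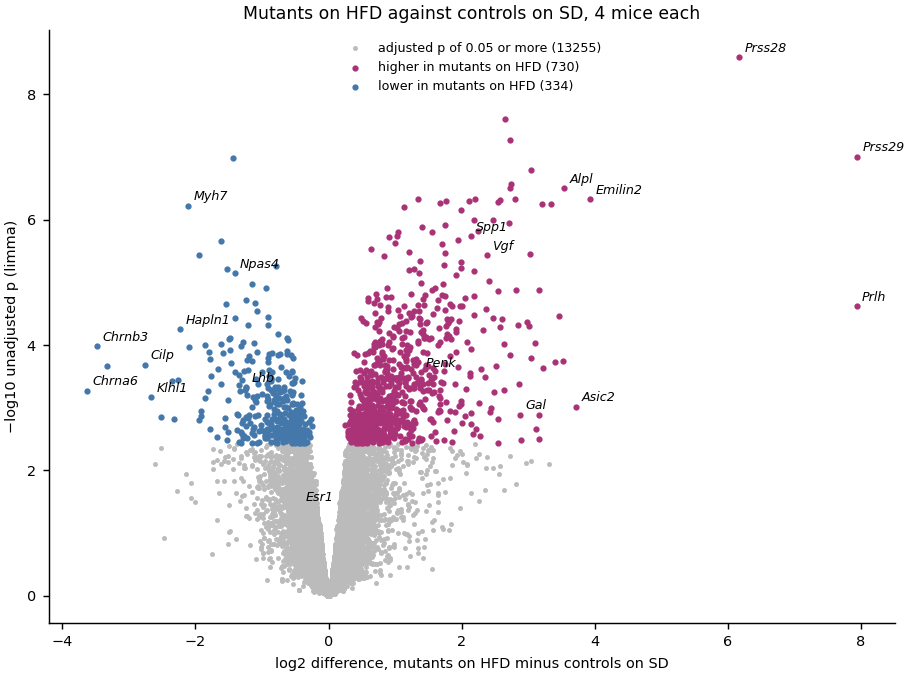
Each point is 1 of 14319 genes, with the log2 difference of mutants on HFD minus controls on SD on the horizontal axis and −log10 of the unadjusted limma p on the vertical axis. The 730 genes called higher extend to 7.94 on the log2 scale (*Prss29* and *Prlh*) and the 334 called lower to −3.63 (*Chrna6*), while *Esr1* lies among the genes that were not called.

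Precursors of secreted peptides held some of the widest gaps between the groups. *Prlh*, which encodes prolactin-releasing hormone (chr1:90953108-90954027, plus strand), was 0 in 3 controls and 17.1 in control P356. The mutants on HFD had 317, 379.9, 363 and 180.1. The groups did not overlap, and the difference was 7.94 ± 1.04 (SE, adjusted p = 0.00364) with all 8 mice and 9.22 ± 0.24 (adjusted p = 9.02e-07) without P356. *Gal*, the galanin precursor that lactotrophs express under oestrogen, was 278, 192.5 and 94.7 in 3 controls and 1294 in P356, against 2579, 1949, 2149 and 1819 in the mutants on HFD. All mutants were above all controls, but P356 lay nearer to the mutants than to its own group. The difference was 2.88 ± 0.64 (adjusted p = 0.0291). It kept its call only in the fit without P356 (3.61, adjusted p = 0.000254) and missed it when any other of the 8 mice was left out, with adjusted p up to 0.0849.

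*Penk*, the proenkephalin gene (chr4:4133531-4138819, minus strand), was 58.2, 71.8, 72.0 and 47.1 in the controls and 217.5, 137, 103 and 217.9 in the mutants on HFD. Every mutant was above every control, 1.38 ± 0.25 higher on the log2 scale (adjusted p = 0.0125, exact permutation p = 0.0286), and the call was kept whichever mouse was left out. An opposite-strand gene, *A830012C17Rik*, overlaps *Penk*, and the use of strand in the counting is not given in the sources used here. *Vip*, the precursor of vasoactive intestinal peptide, was 4.65, 2.63, 2.57 and 2.91 in controls and 17.0, 7.11, 6.60 and 13.7 in mutants on HFD. It was higher in every mutant (1.58 ± 0.31, adjusted p = 0.0176), and the call was lost without P358, P359 or P383, with adjusted p up to 0.0559. *Vgf*, whose product sits in secretory granules and is cut into peptides, was 14.4 to 24.0 in controls and 60.7 to 149 in mutants on HFD. Its difference of 2.38 ± 0.25 was called (adjusted p = 0.0012) and remained so without any single mouse, but not with all 16 mice in the fit.

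Of the 21 peptide precursor genes tested, 6 rose (*Vgf*, *Prlh*, *Penk*, *Vip*, *Gal* and *Nmb*) and 1 fell (*Nmu*). That is 33.3% against 7.43% of all genes. The list was chosen with earlier results of these data known, so nothing is read from that share. Without P356 the counts were 6 and 2, in a fit that called 17.5% of all genes. The list median was 0.34. *Nmb*, the neuromedin B precursor, was higher by 1.05 (adjusted p = 0.0358). *Nmu*, the neuromedin U precursor, fell by 1.56 (adjusted p = 0.0365), from between 1.67 and 3.27 in controls to between 0 and 1.07. The other opioid precursor, *Pdyn*, was 11.9, 6.38, 7.02 and 11.8 in controls and 11.99, 13.5, 10.9 and 13.9 in mutants on HFD, with an adjusted p of 0.208. *Ccn3* was 0.730 to 1.65 in controls and 1.36 to 2.97 in mutants on HFD (adjusted p = 0.205), and *Fst* was under the filter on low values.

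**Figure D2:**
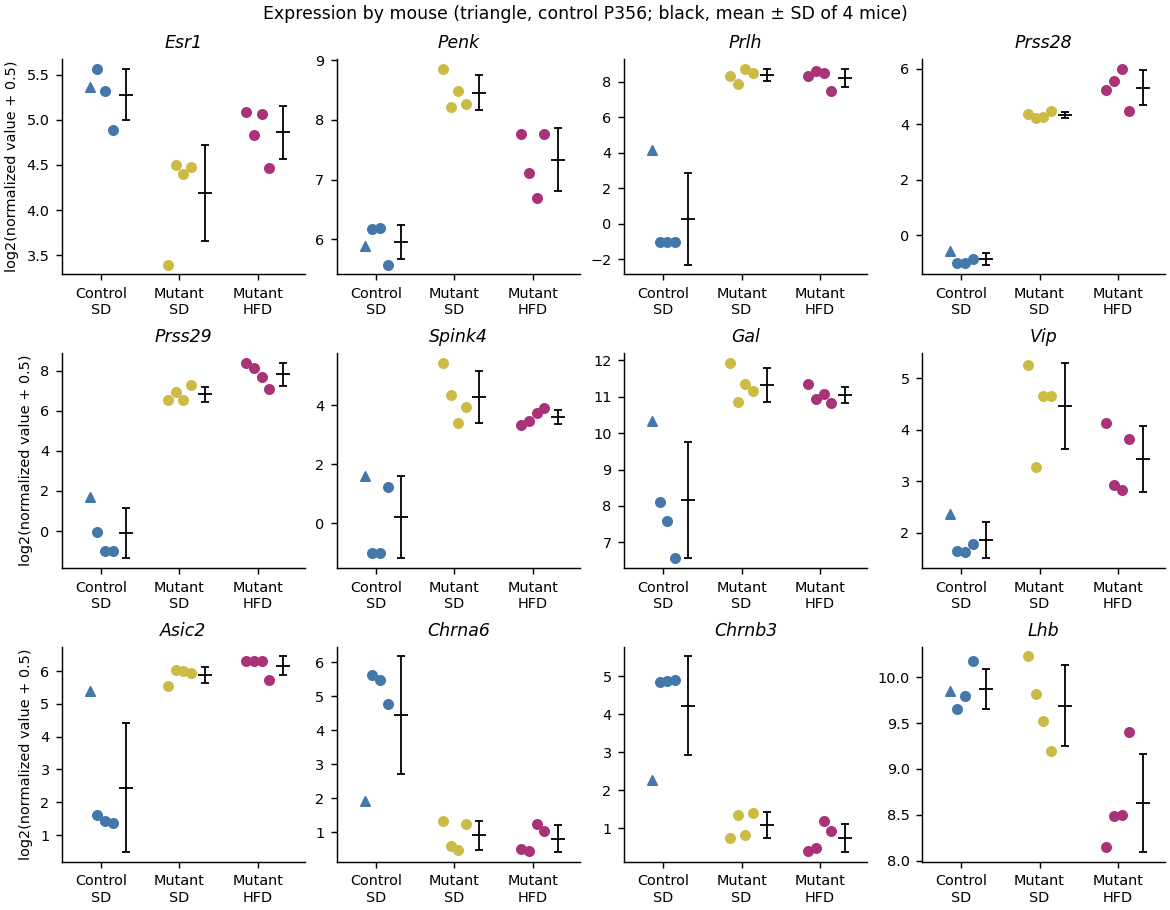
Each panel plots log2(normalized value + 0.5) of 1 gene for every mouse in controls on SD, mutants on SD and mutants on HFD, with black bars for the mean ± SD of 4 mice and a triangle for control P356. *Penk* was at 103 to 217.9 normalized units in mutants on HFD, between the controls on SD (47.1 to 72.0) and the mutants on SD (295.5 to 463), whereas *Lhb* was at 283 to 675 on HFD, below all controls and overlapping with the mutants on SD only through the lowest of those, at 584. P356 lies apart from the other 3 controls in *Prlh*, *Gal*, *Asic2*, *Chrna6* and *Chrnb3*.

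The smallest p of all genes belonged to *Prss28* (chr17:25308646-25311876, plus strand), a secreted tryptase-like serine protease known from the uterus. Its values were 0.178, 0, 0 and 0.0562 in controls, at or under what a few reads are worth, and 37.3, 46.8, 63.3 and 21.8 in mutants on HFD. The difference was 6.17 ± 0.29 (adjusted p = 3.67e-05), and because controls were at the floor it ranged from 5.26 to 8.10 with other settings, the pseudocount among them. *Prss29*, its relative in the same gene cluster (chr17:25318654-25322684, plus strand), lies 6778 bp away. It was 2.71, 0.456, 0 and 0 in controls and 340.7, 284.5, 205 and 138 in mutants on HFD (7.94 ± 0.56, adjusted p = 0.000298). In both genes all 4 mutants were far above every control, and the call was kept without any single mouse.

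Because this neighbouring pair rose together, the 250 bases before each start are shown from RefSeq (GRCm38.p6), 5′ to 3′ on the coding strand, with the oestrogen response element half-site (GGTCA, or TGACC on the other strand) in capitals. The windows are chr17:25308396-25308645 for *Prss28* and chr17:25318404-25318653 for *Prss29*.
Prss28: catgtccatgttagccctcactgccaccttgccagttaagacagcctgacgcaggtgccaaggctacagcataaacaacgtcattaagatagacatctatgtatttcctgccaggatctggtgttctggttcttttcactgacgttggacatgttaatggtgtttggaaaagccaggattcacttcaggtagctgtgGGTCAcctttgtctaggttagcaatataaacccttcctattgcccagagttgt
Prss29: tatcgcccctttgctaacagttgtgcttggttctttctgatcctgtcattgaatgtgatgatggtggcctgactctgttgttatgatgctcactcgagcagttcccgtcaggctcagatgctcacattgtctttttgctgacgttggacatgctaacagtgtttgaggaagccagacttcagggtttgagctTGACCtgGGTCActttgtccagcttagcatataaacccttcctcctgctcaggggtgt
The 2 windows were identical at 67.2% of aligned bases, and at 77.2% over the 150 bases nearest to the start. *Prss28* held 1 half-site, beginning 53 bases before the start, and *Prss29* held 2, beginning 58 and 51 bases before it. Such a short motif is common: 34.9% of all promoters in the table hold it within the same length, as do 32.9% of the tested genes that have an entry, 33.3% of those called higher and 34.1% of those called lower. A match is a description of these letters and not a binding site.

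*Spink4*, an inhibitor of serine proteases, was 2.49, 0, 0 and 1.81 in controls and 9.59, 10.4, 12.7 and 14.3 in mutants on HFD, without overlap (3.399 ± 0.58, adjusted p = 0.0102). Among the 20 serine protease and inhibitor genes tested, 3 rose (*Prss28*, *Prss29* and *Spink4*) and 0 fell by limma. Over all genes 7.43% were called, and the list median was 0.18. Other members of the list were under the filter on low values, which *Prss28* passed through its values in mutants. *Adamts19*, a secreted metalloprotease, was between 0.112 and 1.15 in controls and between 3.72 and 7.95 in mutants on HFD (2.81 ± 0.34, adjusted p = 0.00285). *Adamts13*, which cleaves von Willebrand factor and shares sequence with 20 genes, fell by 1.48 (adjusted p = 0.00646). Both calls were kept without any single mouse, whereas the fall of *Adamts6* by 0.72 (adjusted p = 0.0405) held only without P356 and was lost when any other mouse was left out, with adjusted p up to 0.116.

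The 12 largest called increases also held *Emilin2*, *Alpl* and *Slc5a5*. *Emilin2*, a matrix glycoprotein, was 0.947, 0.174, 0.321 and 0.254 in controls and 14.6, 17.1, 15.9 and 6.92 in mutants on HFD (3.93 ± 0.33, adjusted p = 0.000402). *Alpl*, the tissue-nonspecific alkaline phosphatase, rose by 3.53 ± 0.28 from between 0.536 and 2.07 to between 12.4 and 20.999 (adjusted p = 0.000402). *Slc5a5*, the sodium-iodide symporter of the thyroid, rose by 3.34 ± 0.28 from between 0.435 and 1.22 to between 7.41 and 17.0 (adjusted p = 0.000402). In these 3 genes the groups were far apart and the calls were kept without any single mouse.

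*Ly6a*, a surface protein also called Sca-1, rose from between 16.5 and 41.3 to between 157 and 284 (3.20 ± 0.27, adjusted p = 0.000402). It shares sequence with 3 other genes, so its reads may be split among them. *Crisp1*, a secreted cysteine-rich protein, was between 1.40 and 3.59 in controls and between 8.99 and 47.0 in mutants on HFD (3.46 ± 0.47, adjusted p = 0.00442). *Ret*, the receptor tyrosine kinase for the GDNF family, was 7.35 in P356 and 0.461 to 0.974 in the other controls, against 14.3 to 20.5 in mutants on HFD (3.22 ± 0.56, adjusted p = 0.0118, and 3.89 ± 0.20 without P356). *Asic2*, an acid-sensing ion channel, was 41.1 in P356 and 2.53, 2.22 and 2.06 in the other controls, against 78.1, 79.0, 78.7 and 52.7 in mutants on HFD. Its difference was 3.72 ± 0.79 (adjusted p = 0.0246) with all 8 mice and 4.70 (adjusted p = 2.99e-06) without P356. Without P358, P359, P383, P339, P341 or P387 its adjusted p was up to 0.0744, over the threshold, and it kept its call without P388. Calls of the other named genes in this paragraph were kept without any single mouse. Predicted gene models made up 1 further place among the 12 largest increases.

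The deepest falls were in a pair of neighbouring nicotinic receptor subunits on chromosome 8. *Chrna6* (chr8:27403212-27413944, minus strand), the alpha 6 subunit, was 3.30 in P356 and 48.6, 44.3 and 26.8 in the other controls, against 0.925, 0.881, 1.89 and 1.57 in mutants on HFD. It fell by 3.63 ± 0.71 on the log2 scale (adjusted p = 0.0174). *Chrnb3* (chr8:27368711-27399730, plus strand), the beta 3 subunit that assembles with alpha 6 in dopamine neurons, was 4.36 in P356 and 28.4, 29.1 and 29.4 in the other controls, against 0.818, 0.907, 1.79 and 1.40. It fell by 3.48 ± 0.55 (adjusted p = 0.00742). In both genes every control was above every mutant, and P356 was the lowest control. Without P356 the falls were 4.47 (adjusted p = 4.99e-05) and 4.13 (adjusted p = 1.94e-05). The call of *Chrna6* was lost without P359, P383, P339 or P341 (adjusted p up to 0.0557) and that of *Chrnb3* was kept throughout. The 2 genes lie 3482 bp apart, and they were the 2 members called lower among the 6 nicotinic subunits tested, with 0 called higher by limma. That is 33.3% of those tested, against 7.43% of all genes. The list of 16 subunits was chosen with earlier results of these data known, so nothing is read from that share. *Chrnb2*, the beta 2 subunit, was 16.4 to 18.4 in controls and 17.6 to 19.5 in mutants on HFD (adjusted p = 0.571).

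Other genes with large falls were lower in all 4 mutants than in any control. *Cilp*, a matrix protein of cartilage, was 2.31, 2.88, 8.61 and 12.7 in controls and 0.173 to 0.629 in mutants on HFD (−2.76 ± 0.47, adjusted p = 0.011). *Hapln1*, which links hyaluronan to proteoglycans, was 5.71, 14.96, 18.1 and 11.9 in controls and 1.53 to 2.95 in mutants (−2.23 ± 0.32, adjusted p = 0.00529). *Cldn2*, a tight junction claudin, fell by 2.36 ± 0.44 (adjusted p = 0.0148) from between 2.75 and 16.1 to between 0.588 and 1.07. *Myh7*, a slow myosin heavy chain, was 3.52, 4.45, 4.19 and 3.996 in controls and 0.598, 0.730, 0.494 and 0.410 in mutants (−2.11 ± 0.18, adjusted p = 0.000408). *Myh7* shares sequence with 4 genes and overlaps others on the opposite strand. *Caps2*, a calcium-binding protein that shares sequence with 105 genes, fell by 2.09 ± 0.33 (adjusted p = 0.00742). These 5 calls were kept without any single mouse, and those of *Cilp* and *Cldn2* were lost with all 16 mice in the fit.

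*Klhl1*, a neuronal actin-binding protein, was 1.04, 7.13, 10.7 and 2.80 in controls and 0.141 to 0.284 in mutants on HFD (−2.66 ± 0.54, adjusted p = 0.0201). The values in mutants are low, and their counting error was not worked out for the length of its transcripts. The call of *Klhl1* was lost without P358, P339, P341 or P387 (adjusted p up to 0.0586). *Sez6*, a membrane protein of neurons that shares sequence with 131 genes, was 4.59, 14.7, 24.7 and 43.3 in controls and 1.75 to 4.35 in mutants on HFD (−2.52 ± 0.57, adjusted p = 0.0304). It passed only without P356 (adjusted p = 0.00123) and missed the threshold without any other mouse, with adjusted p up to 0.0891. The spans of *Emilin2*, *Asic2*, *Klhl1* and *Hapln1* each overlap that of at least 1 gene on the opposite strand. Whether exons overlap was not looked at. Where they do, reads could not be told apart if strand was not used. Predicted gene models took 3 further places among the 12 largest decreases.

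Most hormone genes of the anterior lobe did not pass the test. *Prl* was 313800, 285150, 330790 and 304110 in controls and 423830, 377530, 333310 and 294310 in mutants on HFD, with overlap (0.20, adjusted p = 0.793). *Gh* was 0.64 lower on the log2 scale with an adjusted p of 0.211. *Pomc*, the corticotrophin and melanotrophin precursor, had a difference of 0.43 (adjusted p = 0.238). *Tshb*, the thyrotrophin beta subunit, had one of −0.31 (adjusted p = 0.417), and *Cga*, the alpha subunit shared by the glycoprotein hormones, one of 0.13 (adjusted p = 0.724).

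The exception was *Lhb*, the beta subunit of luteinizing hormone (chr7:45420820-45421897, plus strand). It was 921, 806, 891 and 1158 in controls and 283, 357.96, 360.2 and 675 in mutants on HFD, so that all mutants were below all controls. The difference was −1.24 ± 0.24 (adjusted p = 0.0163, exact permutation p = 0.0286). It missed the threshold without P341 or P387 (adjusted p up to 0.0552). *Ruvbl2* overlaps *Lhb* on the opposite strand. *Fshb*, the beta subunit of follicle-stimulating hormone, ranged from 13.2 (P356) to 284 (P383) in controls and was 40.7, 39.7, 19.6 and 24.2 in mutants on HFD. With all 8 mice its difference was −1.18 (adjusted p = 0.386), and without P356 it was −1.95 (adjusted p = 0.0367).

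The summed level of 7 gonadotroph genes was 1168 to 1804 in controls and 661 to 1113 in mutants on HFD, without overlap. *Lhb* makes up most of that sum. *Gnrhr*, the receptor for gonadotrophin-releasing hormone, was 50.8 to 62.6 in controls and 60.2 to 77.3 in mutants, with an adjusted p of 0.268. *Spp1*, the osteopontin gene on the same list, rose from 43.3, 35.2, 27.6 and 31.1 to 152, 128, 225 and 116 (2.14 ± 0.21, adjusted p = 0.000796). In bulk tissue, fewer cells of a type and less RNA per cell cannot be told apart.

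Of the 5 lactotroph genes, 3 were called lower without P356, in a fit that called 17.5% of all genes. With all 8 mice 1 was called lower (20.0%, against 7.43% of all genes called). The 1 was *Drd2*, the dopamine receptor through which prolactin is held down. *Drd2* was 52.5 to 69.7 in controls and 38.2 to 51.7 in mutants on HFD (−0.46 ± 0.12, adjusted p = 0.0468), and the call was lost when any mouse other than P356 was left out, with adjusted p up to 0.127. *Dio2*, the deiodinase that makes active thyroid hormone, was 29.1, 28.6, 18.3 and 14.7 in controls and 77.3, 65.4, 74.6 and 60.8 in mutants on HFD (1.65 ± 0.21, adjusted p = 0.00329). *Inhbb*, the inhibin and activin beta B subunit, rose by 0.83 ± 0.14 (adjusted p = 0.00881). These last 2 calls were kept without any single mouse, and that of *Inhbb* was lost with all 16 mice in the fit. *Dlk1*, a Notch-like membrane protein of somatotrophs, was lower by 0.53 (adjusted p = 0.0179), and *Crhr1*, the corticotrophin-releasing hormone receptor, by 0.68 (adjusted p = 0.0419). Leaving out P358, P359, P383, P341 or P387 cost both of them the call, as did P339 for *Crhr1*, with adjusted p up to 0.0666 and 0.117. None of the 19 pituitary lineage transcription factors tested was called by limma with all 8 mice. Without P356, 7 were called lower, in a fit that called 1028 of 14344 genes lower. The melanotroph genes *Pcsk2* (0.70, adjusted p = 0.0342) and *Esm1* (0.92, adjusted p = 0.0414) were higher, while *Pax7* (adjusted p = 0.268) and *Gulo* (adjusted p = 0.157), which mark the same cells, were not called. *Pcsk2*, which shares sequence with 62 genes, lost its call without P358, P359, P339 or P341 (adjusted p up to 0.097). *Esm1* lost its call without P358, P359, P339, P341, P387 or P388 (up to 0.107).

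Genes of blood vessels were called higher in a larger share than those of any other list. Of 10 endothelial genes, 7 rose and 0 fell by limma, where 7.43% of all genes were called, with a median difference of 0.66 against 0.01 for all genes, and the count was the same without P356. *Kdr*, the main receptor for vascular endothelial growth factor, was 13.8, 11.3, 11.7 and 10.97 in controls and 26.8, 22.8, 21.1 and 20.2 in mutants on HFD (0.90 ± 0.12, adjusted p = 0.00364). *Flt1*, its second receptor, was 5.88, 5.13, 5.06 and 5.19 in controls and 12.8, 11.7, 14.3 and 8.59 in mutants (1.07 ± 0.16, adjusted p = 0.00555). *Tie1* (0.75, adjusted p = 0.0047) and *Pecam1* (0.70, adjusted p = 0.0132), a junction protein of endothelium, rose as well. *Tie1* shares sequence with 244 genes and *Pecam1* with 1174. In all 4 genes the groups did not overlap. The calls were kept without any single mouse, and all 4 were lost when the controls on HFD joined the fit (16 mice). The summed level of the 10 genes was 153 to 188 in controls and 233 to 261 in mutants on HFD.

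Of 8 pericyte and fibroblast genes 2 rose (*Rgs5* and *Col1a2*) and 0 fell by limma, with a median of 0.40. Over all genes 7.43% were called. The summed level of the 8 genes was 245 to 304 in controls and 337 to 688 in mutants on HFD. Without *Col1a2*, a collagen chain that makes up most of that level, the sums were 72.9 to 95.6 and 114 to 208. *Col1a2* was 158 to 209 in controls and 222 to 480.0 in mutants (0.92, adjusted p = 0.0288), and its call was lost without P359, P383, P339, P341 or P387, with adjusted p up to 0.0844. *Rgs5*, a pericyte gene, was 30.5, 33.5, 30.5 and 18.4 in controls and 107, 88.5, 108 and 65.4 in mutants (1.70 ± 0.21, adjusted p = 0.00318). The immune cell list, which holds macrophage genes above all, had 5 of 12 genes called higher and 0 lower. That is 41.7% against 7.43% of all genes, and the list median was 0.86. *Tyrobp*, a signalling adaptor of myeloid cells, rose by 1.14 ± 0.21 (adjusted p = 0.014) and kept its call without any single mouse, but not with all 16 mice in the fit. *C1qa* (1.02, adjusted p = 0.026) and *Csf1r* (1.01, adjusted p = 0.0326) lost theirs without P358, P359, P383 or P387, and without P359, P383, P339, P341 or P387, with adjusted p up to 0.0714 and 0.0938. The summed level of the immune list was 212 to 362 in controls and 337 to 980 in mutants on HFD, with overlap, and the highest sum was that of P341.

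Of 37 collagen, laminin and integrin genes tested, 11 rose and 0 fell by limma, 29.7% against 7.43% of all genes, with a median of 0.41. *Lama4*, the laminin chain of vessels, rose by 1.11 ± 0.16 (adjusted p = 0.00476). *Itga6*, a laminin receptor that shares sequence with 10 genes, rose by 1.15 ± 0.19 (adjusted p = 0.00933). Both calls were kept without any single mouse. *Col1a1* was 2.35 to 3.66 in controls and 11.2, 16.6, 38.8 and 3.81 in mutants on HFD, and the wide spread among mutants left it uncalled (1.90, adjusted p = 0.0666). Of the 5 red cell genes, 0 were called by limma with or without P356, and their sums overlapped, at 581 to 3252 in controls and 1291 to 2406 in mutants on HFD. The posterior lobe sum was 23.7 to 30.0 in controls and 32.2 to 35.6 in mutants on HFD. *Col25a1*, which shares sequence with 191 genes, was the only 1 of its 7 genes called (6.06 to 11.9 against 14.5 to 18.2, 1.09, adjusted p = 0.0126). Without *Col25a1* the sums overlapped, at 11.8 to 22.6 and 14.8 to 18.8, and the list median was −0.11, with *Rax*, a pituicyte transcription factor, at −0.60 (adjusted p = 0.225). Whether a change in these cell types took part in other results was not tested.

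**Figure D3:**
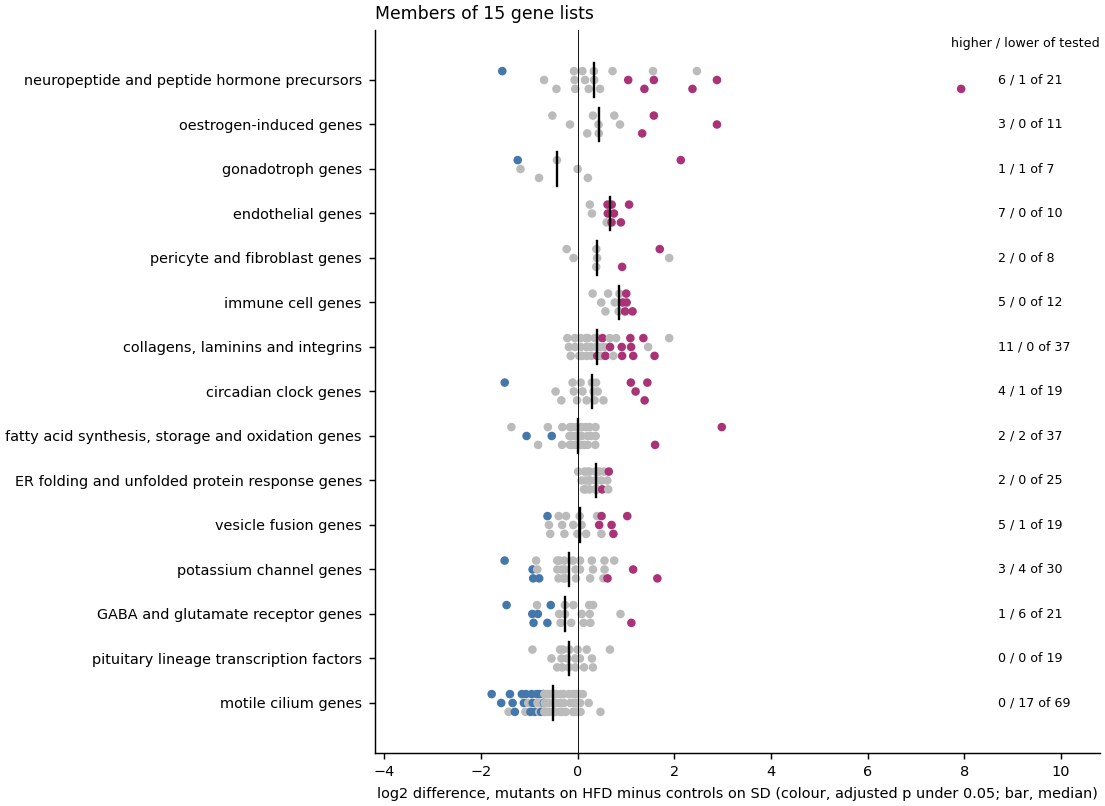
Each point is 1 tested gene of a list, placed by its log2 difference of mutants on HFD minus controls on SD, with purple for genes called higher, blue for genes called lower, grey for the rest and a black bar for the list median. Endothelial genes all lie right of 0 with a median of 0.66. The motile cilium genes, a list chosen after values were seen, have a median of −0.50 and 17 of 69 called lower, against 2.33% of all genes.

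Genes of excitability and secretion moved in both directions. Of 21 GABA and glutamate receptor genes, 1 rose and 6 fell, 33.3% against 7.43% of all genes, with a median of −0.26. Without P356 the counts were 3 and 7 of 22, in a fit that called 17.5% of all genes. *Grik2*, a kainate receptor subunit, was 14.4, 19.1, 18.1 and 19.2 in controls and 8.69, 9.23, 8.60 and 9.33 in mutants on HFD (−0.94 ± 0.11, adjusted p = 0.0028). *Grik5*, its high-affinity partner subunit, fell by 0.62 ± 0.10 (adjusted p = 0.00872) and *Gria4*, an AMPA receptor subunit, by 1.47 ± 0.25 (adjusted p = 0.0107). In all 3 genes the groups did not overlap and the calls were kept without any single mouse, though *Gria4* lost its call with all 16 mice in the fit.

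Of 30 potassium channel genes, 3 were called higher and 4 lower, 23.3% against 7.43% of all genes. Of 22 calcium and sodium channel genes, 2 were called higher and 3 lower (22.7%). Without P356 the respective counts were 5 and 6, and 3 and 6, in a fit that called 17.5% of all genes. *Kcnk1*, a 2-pore leak channel, rose by 0.62 ± 0.10 (adjusted p = 0.00829) and *Scn2b*, a sodium channel beta subunit, by 1.03 ± 0.15 (adjusted p = 0.00514). *Scn2b* shares sequence with 499 genes. *Scn8a*, a pore-forming sodium channel, was 30.3 to 43.1 in controls and 19.5 to 23.2 in mutants on HFD and fell by 0.72 ± 0.12 (adjusted p = 0.00872). Of 19 vesicle fusion genes, 5 rose and 1 fell with all 8 mice, 31.6% against 7.43% of all genes. Without P356, 6 rose and 6 fell, in a fit that called 17.5% of all genes. *Rab3a*, a vesicle GTPase, was 79.1, 67.7, 60.3 and 57.6 in controls and 102, 115, 109 and 116 in mutants (0.74 ± 0.11, adjusted p = 0.00485). *Syt1*, a calcium sensor for release, rose by 0.70 ± 0.10 (adjusted p = 0.00419). *Cplx2*, a complexin that binds the fusion machinery, was 52.1, 45.9, 51.0 and 61.9 in controls and within 33.7 to 34.1 in all 4 mutants (−0.62 ± 0.09, adjusted p = 0.00646). The calls of the 6 genes named in this paragraph were kept without any single mouse, and those of *Kcnk1*, *Scn2b* and *Cplx2* were lost with all 16 mice in the fit.

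Of 11 oestrogen-induced genes tested, 3 were called higher (*Vip*, *Gal* and *Pgr*) and 0 lower by limma, 27.3% against 7.43% of all genes. The list median was 0.44, and 6 were called higher without P356, in a fit that called 17.5% of all genes. *Pgr*, the progesterone receptor, was 17.4 in P356 and 5.59, 4.56 and 5.93 in the other controls, against 22.2, 17.4, 20.5 and 16.4 in mutants on HFD. P356 overlapped with the mutants. The difference of 1.34 had an adjusted p of 0.0481 with all 8 mice and of 0.000234 without P356, and leaving out any other mouse lost the call, with adjusted p up to 0.125. *Pgr* was also not called with no filter or one at 0.1, with median scaling or quantile normalization, without trend, with 16 mice in the fit, or with low against high animal numbers as a covariate. Of the 12 steroid receptor genes tested, *Pgr* was the only 1 called, a share of 8.33% that is near the 7.43% of all genes.

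Of 19 circadian clock genes, 4 rose and 1 fell, 26.3% against 7.43% of all genes, with a median of 0.30. *Per2* was 4.26, 3.13, 3.11 and 4.40 in controls and 8.21, 10.1, 6.84 and 9.13 in mutants on HFD (1.10 ± 0.17, adjusted p = 0.00646). *Bhlhe40*, a repressor of the clock, rose by 1.20 ± 0.22 (adjusted p = 0.0138). *Npas2*, a partner of the activating arm, fell by 1.51 ± 0.37 (adjusted p = 0.0399), a call lost without P358, P359, P339, P341, P387 or P388 (adjusted p up to 0.0912). Among 19 immediate early genes *Npas4*, an activity-dependent transcription factor, was 7.39, 6.93, 6.88 and 6.29 in controls and 2.67, 2.71, 2.14 and 1.68 in mutants (−1.41 ± 0.16, adjusted p = 0.00185). The list had 2 members called higher and 1 lower with all 8 mice (15.8% against 7.43% of all genes). Without P356 it had 3 of each, in a fit that called 17.5% of all genes. *Sgk1*, a kinase induced by glucocorticoids, rose by 1.21 ± 0.19 (adjusted p = 0.00803, lost with all 16 mice in the fit), while 11 of the 13 glucocorticoid-induced genes tested were not called. The time of day at collection is not given in the labels, and its part in these values was not tested.

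Genes of fat and sterol metabolism were called in both directions. Of 37 genes of fatty acid synthesis, storage and oxidation, 2 rose and 2 fell. Without P356, 3 rose and 4 fell of 38 tested, in a fit that called 17.5% of all genes. The 4 of 37 are a larger share than the 7.43% of all genes, and the list median was 0.01. *Cd36*, a fatty acid transporter, was 2.76, 1.52, 0.923 and 0.963 in controls and 16.3, 9.37, 9.05 and 33.4 in mutants on HFD (2.98 ± 0.42, adjusted p = 0.0047). *Fabp4*, a fatty acid binding protein of adipocytes, macrophages and endothelium, rose by 1.60 ± 0.28 (adjusted p = 0.0122). The desaturases *Fads1* and *Fads2* fell by 0.53 ± 0.09 (adjusted p = 0.00933) and 1.05 ± 0.20 (adjusted p = 0.0153), the latter lost without P359 (adjusted p = 0.0513) and with all 16 mice in the fit. Of 22 cholesterol genes, 1 rose and 2 fell (*Fdft1* and *Sqle*), 13.6% of the list, and both of those that fell lost their call without P359, P339, P341, P387 or P388, with adjusted p up to 0.0881 for *Fdft1*. Among 21 genes of leptin, insulin and JAK-STAT signalling, *Igfbp3*, a carrier of insulin-like growth factors, was 48.3 in P356 and 17.5, 22.6 and 20.3 in the other controls, against 101, 84.0, 77.7 and 92.4 in mutants (1.80 ± 0.27, adjusted p = 0.00625, and 2.12 ± 0.12 without P356). *Igfbp5* rose by 0.60 ± 0.08 (adjusted p = 0.00344). That list had 3 members called higher with all 8 mice (14.3% against 7.43% of all genes). It had 6 without P356, in a fit that called 17.5% of all genes. In either fit 0 were called lower by limma.

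In the Wnt list 4 of 22 genes rose and 1 fell, 22.7% against 7.43% of all genes. Without P356 the counts were 7 and 2, in a fit that called 17.5% of all genes. *Tcf7l2*, a transcription factor of the pathway, was 3.06, 3.30, 2.70 and 3.16 in controls and 11.8, 10.95, 14.1 and 8.04 in mutants on HFD (1.70 ± 0.17, adjusted p = 0.00091). *Sfrp2*, a secreted antagonist, rose by 2.05 ± 0.26 (adjusted p = 0.00329), and both calls were kept without any single mouse. Folding genes of the endoplasmic reticulum were higher in 2 of 25 with all 8 mice (8.0%), near the 7.43% of all genes. Without P356 they were higher in 14 of 25, in a fit that called 17.5% of all genes. In either fit 0 were lower by limma. Of 24 cell cycle genes 1 was called higher and 0 lower by limma (4.17%), and of 19 interferon-stimulated genes also 1 and 0 (5.26%), shares near the 7.43% of all genes. Of 13 mitochondrially encoded genes 0 were called by limma.

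Beside the mutants on SD, many of the largest differences from the control SD baseline were close in size on either diet, and others were not. Both comparisons share the same 4 controls, so their values are given side by side and the test of a difference between them is mutants on HFD against mutants on SD. In that test 0 of 14352 genes were called by limma over 12 mice. At an unadjusted p under 0.05 there were 713, 4.97% of the genes, about the 0.05 share that this threshold gives when no gene differs, and the smallest adjusted p was 0.395. Among the genes called on HFD against controls, 130 had an unadjusted diet p under 0.05, of which 122 lay farther from controls on HFD than on SD and 8 nearer. These genes were called on the same mutants on HFD, which favours the former direction, so nothing is read from that split. In the genes called on HFD against controls, the 95% interval of that difference had a median width of 0.89 on the log2 scale. That interval is per gene, whereas calls were adjusted over 14352 genes, so diet differences larger than it could be missed too. *Penk*, at −1.12 between diets, was not called. Mutant P357, which stood apart, is part of all values on SD.

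*Prlh* was 322, 236, 418 and 358.05 in mutants on SD. Its difference from controls was 8.07 on SD and 7.94 on HFD, and the difference between diets in mutants was −0.13 (95% interval −2.09 to 1.83). *Chrna6* was −3.54 on SD and −3.63 on HFD, with −0.09 between them (−1.47 to 1.28). *Chrnb3* was −3.15 on SD and −3.48 on HFD, with −0.33 between them (−1.40 to 0.74). For *Slc5a5* the values were 3.37, 3.34 and −0.03 (−0.65 to 0.60). *Prss28* was 20.1, 18.1, 18.7 and 21.5 in mutants on SD, all below the 4 mutants on HFD. Its difference from controls was 5.18 on SD and 6.17 on HFD, and that between diets was 0.99 (0.44 to 1.54, unadjusted p = 0.00189, adjusted p = 0.806). *Prss29* was 6.92 on SD and 7.94 on HFD, with 1.02 between them (−0.06 to 2.09).

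*Penk* was 463, 295.5, 357.5 and 307.6 in mutants on SD, every one above the 4 mutants on HFD. Its difference from controls was 2.50 on SD (adjusted p = 0.000101) and 1.38 on HFD. Between diets it was −1.12 ± 0.24 in mutants (95% interval −1.64 to −0.60, unadjusted p = 0.000446), with an adjusted p of 0.508 over all genes. *Vip* had 2.61 on SD and 1.58 on HFD, and −1.03 between diets (−1.89 to −0.18, adjusted p = 0.806). *Esr1* was 10.02, 22.2, 20.5 and 21.8 in mutants on SD, with −1.09 from controls on SD (adjusted p = 0.0219), −0.42 on HFD, and 0.67 between diets (0.15 to 1.19, adjusted p = 0.806). *Lhb* was 1198, 899, 734 and 584 in mutants on SD, with −0.18 from controls on SD (adjusted p = 0.733), −1.24 on HFD, and −1.06 between diets (−1.62 to −0.49, unadjusted p = 0.00139, adjusted p = 0.806). *Flt1* had 0.45 on SD, 1.07 on HFD and 0.61 between diets (0.26 to 0.96, adjusted p = 0.806). *Rasal3*, a RAS regulator of leukocytes, and *Pf4*, a platelet chemokine, were called higher on SD and named for their large negative diet differences. *Rasal3* was 3.48, 1.13, 3.37 and 5.70 in mutants on SD, 0.335, 1.496, 0.515 and 0.812 on HFD and 0.334 to 0.392 in controls, so that 3 of the 4 mutants on HFD were above every control. *Pf4* was 3.53 to 8.03 in mutants on SD, 0.453 to 2.65 on HFD and 0.331 to 1.87 in controls, with overlap between the last 2. The diet difference was −1.53 for *Rasal3* and −1.50 for *Pf4*, with an adjusted p of 0.806 for each. Without P357 the difference between diets was −0.99 for *Penk*, −0.77 for *Vip* (95% interval −1.63 to 0.10), 0.40 for *Esr1*, −0.88 for *Lhb* and 0.53 for *Flt1*, each with an adjusted p of 1.00, and *Pf4* lost its call on SD (1.53, adjusted p = 0.0593) while *Penk*, *Vip* and *Esr1* kept theirs.

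**Figure D4:**
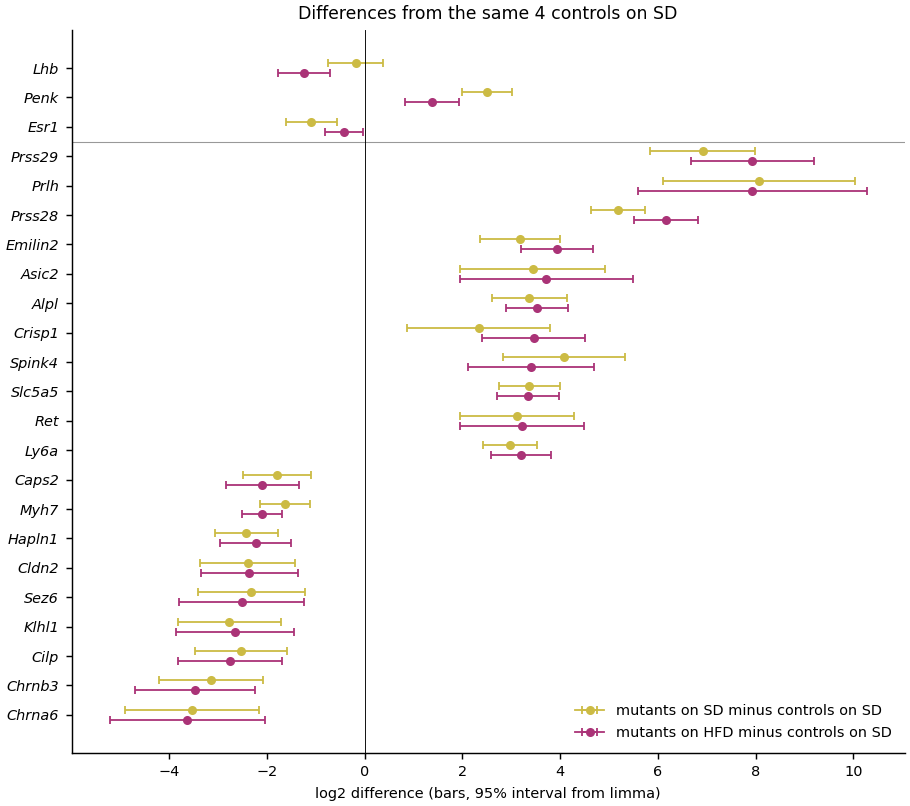
Points are log2 differences from the same 4 controls on SD with 95% intervals from limma, yellow for mutants on SD and purple for mutants on HFD, with 3 genes of the study above the line and the largest differences that have a gene name below it. *Penk* goes from 2.50 on SD to 1.38 on HFD and *Lhb* from −0.18 to −1.24, while *Prlh*, *Slc5a5*, *Chrna6* and *Cldn2* are nearly level.

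The number of genes called depended on single mice. Without P356 it rose from 1064 to 2515 (1487 higher and 1028 lower), and 1054 of the 1064 genes were called in both fits. Leaving out another control lowered the count, to 612 without P358, 474 without P359 and 557 without P383. Among the mutants it was 507 without P339, 405 without P341, 495 without P387 and 823 without P388. In 306 of the 1064 called genes, 28.8%, P356 was nearer to the mean of the mutants on HFD than to that of the other controls. These genes were called with P356 among the controls, and a control near the mutants makes a call less likely. The share is bound to that selection and may be too low as a measure over other genes.

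**Figure D5:**
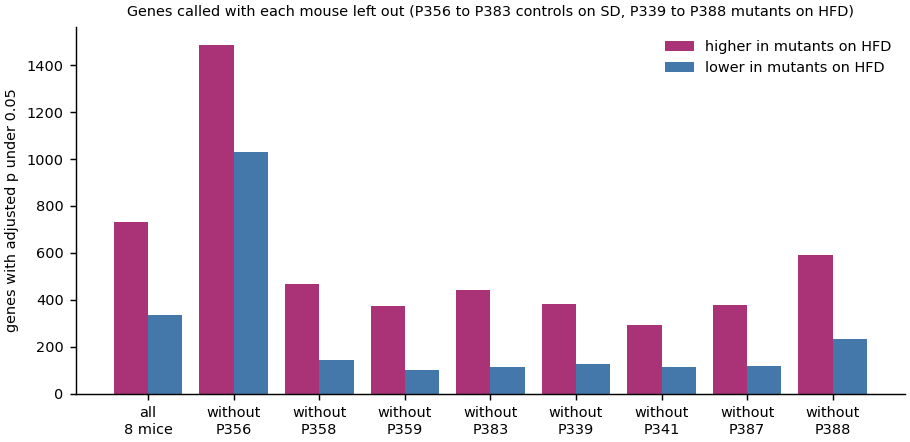
Bars count the genes called higher (purple) and lower (blue) in mutants on HFD at an adjusted p under 0.05, with all 8 mice and with each mouse left out in turn. The bars without P356, 1487 and 1028, are the only ones above those for all 8 mice, 730 and 334.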

How the data were processed

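The authors purified total RNA from each pituitary, made 1 library per mouse with the NEBNext Ultra II kit and sequenced on a NovaSeq. Per the labels, reads were quantified with kallisto and sleuth on mm10, and tool versions are not given in the sources used here. The deposited value is a normalized expression signal per gene, not a count, so counting tests were not used. All 17362 genes of the table were read, 17351 had a symbol, and no value column was without a mouse. Values were taken as log2(value + 0.5). The genes tested had a mean over the 8 mice of 1 or more, and the test was limma 3.58.1 in R 4.3.3 (1 mean per group, eBayes with trend, Benjamini-Hochberg, threshold 0.05). A fold on this scale understates the change of low genes. Mutants on SD entered a second fit of 12 mice, from which the SD and diet differences come. The genes of the study also had two-sided exact permutation tests.

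Named genes were those of the study, the 12 largest called increases and decreases without overlap between groups (predicted models counted only), up to 4 genes per list by smallest p, and genes called on SD with extreme diet differences. The comparison, lists and rule were chosen with earlier results of these data known. *Nmb*, *Nmu* and the genes of the closing observations were picked outside the rule after their values were seen. Simulated data with known answers were used to test the fitting code. The size of 1 read was estimated from 1457 genes with 1 transcript, where 81.3% to 91.7% of low values lay within 0.15 of a whole number. Motifs were sought in the 250 bases before RefSeq starts, coordinates are from GENCODE M21, and BLAST 2.17.0 searched for shared sequence (90% identity over 100 bp). Alternatives were pseudocounts of 0.1 and 1, filters at a mean of 0.1 or 5 or none, median scaling, quantile normalization, eBayes without trend, 12 or 16 mice in the fit, a covariate for animal numbers below or above 370.0, an adjusted p of 0.01 as threshold, and fits without each mouse in turn. Values of named genes without P357 and marker sums without *Col25a1* or *Col1a2* were added after seeing the data.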

Additional observations from a re-analysis of the deposited data

Results flagged for a closer look

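A mouse was set aside for a closer look where its gap to the nearest mouse of its group of 4 took up more of the group's range than Dixon's 95% critical value allows. Of 74 groups looked at, 6 did, and chance gives about 1 in 20 groups. Control P356 held 4 of the 6: it was highest for *Asic2* (gap 0.940 of the range, value 41.1), *Prlh* (gap 1.000, value 17.1, the other controls at 0) and *Slc5a5* (gap 0.950, value 1.22), and lowest for *Chrnb3* (gap 0.980, value 4.36). In each of these genes P356 departed from its group toward the mutants on HFD. Control P359 was highest for *Nkx2-1* (gap 0.932, value 2.32). Mutant P388 on HFD was lowest for *Asic2* (gap 0.972, value 52.7), still above every control.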

How the results depend on the processing

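The count of 1064 genes (730 higher, 334 lower) stayed within 1.5 times itself with other pseudocounts, filters, scalings, no trend, 12 mice in the fit and a covariate for the range of animal numbers (724 to 1095). It moved further with 16 mice in the fit (336, with 258 higher and 78 lower), at a threshold of 0.01 (255, with 208 and 47), and with P356 and P357 left out of the fit of 12, an alternative chosen after seeing the data (2848, with 1687 and 1161). Leaving out 1 mouse gave 405 to 2515 genes, 293 to 1487 higher and 102 to 1028 lower, and 0 to 2 for mutants on HFD against mutants on SD (2 without control P383). The causes were not tested. For single named genes, 1901 alternative values kept their direction and side of the threshold, 378 lost the call and 3 gained it (*Fshb* without P356, and *Fshb* and *Pdyn* in the fit of 12 without P356 and P357). *Cga*, never called, ranged from −0.025 (without mutant P387) to 0.258 when 1 mouse was left out, against 0.13 with all. Under quantile normalization the highest genes *Prl*, *Gh* and *Pomc* could show no difference. Median scaling moved the median of all genes from 0.01 to −0.008 and quantile normalization to −0.027. No paired analysis was possible because the labels give animal numbers only and the groups share none. Tests for counts were not run, since the table holds no counts. In the called genes the 95% interval of the diet difference was 0.89 wide at the median on the log2 scale. That interval and the adjustment over all genes both limit what could be called.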

Other observations

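Of 69 genes of the motile cilium axoneme tested, a list put together after values were seen, 0 rose and 17 fell by limma with all 8 mice. The other 52 were not called, and 2.33% of all genes were called lower. Without P356, 1 rose and 32 fell, in a fit that called 1028 of 14344 genes lower. The list median was −0.50. In 22 of the 69 genes all mutants were below all controls, as they were in 836 of all 14319 genes tested. *Cfap44* was 1.86, 2.71, 2.67 and 4.48 in controls and 0.460, 0.623, 0.524 and 0.855 in mutants on HFD (−1.58 ± 0.26, adjusted p = 0.00849). *Dynlrb2*, a dynein light chain, was 15.7, 29.3, 28.8 and 29.0 in controls and 6.83, 10.98, 12.6 and 7.34 in mutants (−1.40 ± 0.25, adjusted p = 0.0124). *Lrrc23*, a radial spoke protein, was 23.0, 31.6, 50.03 and 44.6 against 12.4, 13.5, 11.4 and 18.8 (−1.34 ± 0.24, adjusted p = 0.0136). The regulator *Foxj1* was 1.49 to 2.88 in controls and 1.17 to 1.92 in mutants and was not called (−0.28, adjusted p = 0.478), nor were *Rfx2* (−0.58, adjusted p = 0.112) and *Rfx3* (−0.49, adjusted p = 0.108). The letters GTTGCC on either strand, a half-site of RFX factors, were in the 250 bases before the start of 17 of the 54 list members that have an entry, 31.5%, and in 10.5% of all promoters in the table. They were in 10.02% of the genes called higher and 16.1% of those called lower, which include the cilium genes.

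The next smallest p-values after *Prss28* belonged to genes outside the naming rule. *Papss2*, which makes the sulfate donor of proteoglycans and steroids, was 1.61, 1.35, 1.304 and 0.862 in controls and 10.4, 11.3, 10.4 and 10.2 in mutants on HFD (2.65 ± 0.16, adjusted p = 0.000176). Its values in mutants on SD were 10.1, 11.7, 11.2 and 11.7. *Rps7*, a protein of the small ribosomal subunit, was 77.0, 37.7, 50.5 and 47.2 in controls and 340.0 to 343 in all 4 mutants on HFD (2.73 ± 0.18, adjusted p = 0.000257), and it shares sequence with 26 other genes, among which its reads may be split.

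Called genes that lie next to each other and were picked after their values were seen include *Prlh* and *Mlph*, 1966 bp apart and higher by 7.94 and 1.37, and the gamma-glutamyltransferase genes *Ggt1* and *Ggt5*, 3140 bp apart and higher by 2.08 and 2.52.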
